A study of Mus musculus with 4 samples.

Results

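The Myc, Max and Mxd network was described here through 9 genes, Myc, Mycn, Max, Mxd1, Mxd3, Mxd4, Mxi1, Mnt and Mga, out of 18193 genes measured. The members were chosen by gene symbol in the probe annotation, which gave 24 of 45101 probe sets, and each gene was read from its brightest probe set over the 4 arrays. The cells were lineage-negative, cKit-positive, Sca1-positive (LSK) bone marrow cells, a fraction enriched for stem cells and multipotent progenitors of the blood. Ncstn KO mice had the genotype Ncstn flox/flox Mx1-cre+ and WT mice were Ncstn flox/flox without cre, so that both groups carried the floxed alleles and differed in the transgene. Nicastrin, the product of Ncstn, is part of gamma-secretase, the protease that releases the active fragment of Notch. All mice received 3 injections of polyIC, which raises interferon, from 14 days of age at 20 µg per g of body weight, and were analysed 4 weeks later at 6 weeks of age. The Mx1 promoter responds to interferon in many tissues, so deletion need not be limited to blood cells, and the WT mice received polyIC without carrying cre. Each group held 2 arrays: Ncstn KO replicate 1 and WT replicate 2 came from females, and Ncstn KO replicate 2 and WT replicate 1 from males.

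The proteins of this network bind DNA in pairs. Myc and its relative Mycn pair with Max through a helix-loop-helix and leucine zipper and raise transcription of growth genes at the E-box sequence CACGTG, while Mxd1, Mxd3, Mxd4, Mxi1 and Mnt also pair with Max and bring Sin3 corepressor complexes to the same sequence. Mga, a very large partner of Max that also has a T-box, belongs to a Polycomb repressor complex. In mouse blood stem cells Myc and Mycn together are needed for survival and self-renewal, and Myc is known as a direct target of Notch1 in T-cell leukemia. These roles are background and were not measured here.

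The targeted gene checked the labels. Ncstn had log2 intensities of 7.58 and 7.91 in Ncstn KO and 9.05 and 8.98 in WT, with the Ncstn KO arrays clearly the lower. Its log2 change was -1.27, with an SE of 0.22 and an adjusted p of 0.257 in the limma fit over all genes. A dimmer Ncstn probe set read 5.86 and 7.09 in Ncstn KO and 6.81 and 6.79 in WT, so that Ncstn KO replicate 2 was its highest array. Where these probe sets lie relative to the deleted exons was not examined. The sorted cells carried signal for Kit, Cd34, Flt3 and Ptprc on all arrays, with Kit at 11.70 and 11.73 in Ncstn KO and 11.94 and 11.57 in WT. Slamf1, a surface marker of long-term stem cells, read 11.07 and 10.68 in Ncstn KO and 10.44 and 9.64 in WT, with separate arrays and a change of 0.83 (SE 0.28, unadjusted p = 0.0259, limma adjusted p = 0.633). Its change stood beside -0.04 to 0.13 for Kit, Cd34, Flt3 and Ptprc. Of these genes only Kit encodes a protein that the sort selected for. The part of Slamf1 in the network's values was not tested. Ly6a, the gene of Sca1, was not used here. Values throughout are log2 intensities, and a change is the log2 mean of Ncstn KO minus that of WT. Each comes with its standard error (SE) in the fit, and n = 2 per group. The level of one probe set cannot be set against that of another, because probes differ in brightness for the same amount of RNA. The array hybridization controls, added bacterial and phage transcripts, were brighter in Ncstn KO by 0.20, and after scaling to these controls the median change over all genes was -0.17 instead of 0.02. The 3′ minus 5′ log2 signal of the actin control was 1.02 and 0.94 in Ncstn KO and 0.89 and 0.79 in WT. For the Gapdh control it was 0.69 and 0.77 in Ncstn KO and 0.71 and 0.65 in WT, with overlap. The part of such differences in the small changes below was not tested. In bulk RNA, fewer cells that express a gene and less of its RNA per cell cannot be told apart.

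No member of the network passed the test between Ncstn KO and WT. Mxd4, a Myc antagonist, had the largest change of the 9, 1.25-fold higher in Ncstn KO, and it lay above WT in both sexes and on both of its bright probe sets. Myc was 1.13-fold higher and Max differed by 0.982-fold. In the limma fit 0 of 9 members had an adjusted p under 0.05, where the background over all genes was 0% (0 of 18193), and 1 of 9, Mxd4, had an unadjusted p under 0.05, against 6.8% of all genes. Both Ncstn KO arrays lay above both WT arrays for 3 members, Myc, Mxd3 and Mxd4, against a background of 21.3%, and below them for 0 members, against 12.8%, so that the arrays separated in either direction for 3 of 9, against 34%. The median change over the 9 members was 0.09, beside 0.02 over all genes. Scaled to the hybridization controls, the median became -0.11, beside -0.17 over all genes. The members with separate arrays then became 1 higher, Mxd4, and 5 lower. The share of all genes with separate arrays was not taken under that scaling, which lowers all changes alike, so those 5 are no result about the network. Relative to the median of all genes, 5 members stood higher and 4 lower in the values as deposited and after quantile normalization. Centring arrays on their medians or scaling them to the hybridization controls moves all genes alike and cannot alter these counts. At 2 arrays per group, the lowest two-sided p that exact permutation of 1 gene allows is 0.333.

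**Figure D1:**
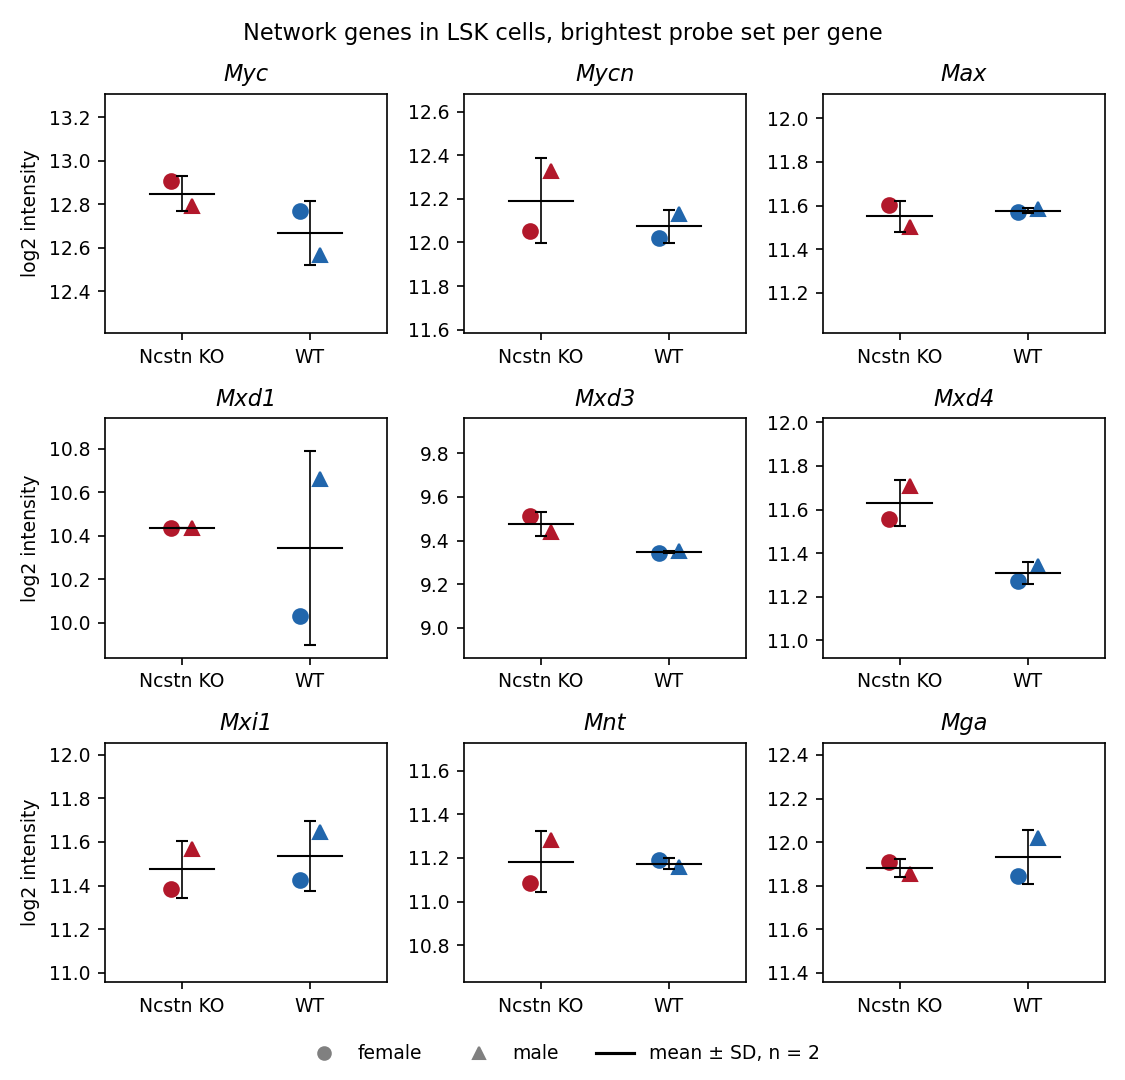
Log2 intensity of the brightest probe set of the 9 network genes on each array, Ncstn KO in red and WT in blue, with circles for females and triangles for males; black lines are the mean and SD of 2 arrays, and every panel spans the same height. Mxd4 shows 11.56 and 11.71 in Ncstn KO above 11.34 and 11.27 in WT, while the arrays of Max lie between 11.50 and 11.60.

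Among the activating members, Myc itself is the proto-oncogene that gives the network its name. Its log2 intensity was 12.91 and 12.79 in Ncstn KO and 12.57 and 12.77 in WT, a mean of 12.85 ± 0.08 against 12.67 ± 0.15 (SD, n = 2 each). The lower Ncstn KO array exceeded the higher WT array by a small step, so the arrays separated only narrowly. The change was 0.18 (SE 0.09, 95% interval -0.05 to 0.41, limma adjusted p = 0.829). It was 0.13 between the females and 0.23 between the males. Without WT replicate 1 the change was 0.08 and without WT replicate 2 it was 0.28, and scaling to the hybridization controls turned it to -0.02, which is 0.16 above the median of all genes under that scaling. Myc was measured by 1 probe set, so no other set could be compared.

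Mycn, the relative of Myc that can replace it in development, gave 12.05 and 12.33 in Ncstn KO and 12.13 and 12.02 in WT. The groups overlapped, with the male Ncstn KO array highest and the female Ncstn KO array between the WT arrays. The change was 0.12 (SE 0.12, 95% interval -0.16 to 0.40, limma adjusted p = 0.963), and it was -0.02 without Ncstn KO replicate 2 and -0.08 when scaled to the hybridization controls. A dimmer Mycn probe set read 9.03 and 9.07 in Ncstn KO and 8.65 and 8.79 in WT, a change of 0.33 with separate arrays (probe set fit, adjusted p = 0.978). The dimmest set moved the other way by -0.11, at levels of 4.49 to 4.66. The brighter Mycn sets thus both lay above WT by their means, and the dimmest was near the lower quartile of gene means, 4.42.

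Max, the shared partner of the other 8 members, had the narrowest range over the 4 arrays among the brightest probe sets of the members. It read 11.60 and 11.50 in Ncstn KO and 11.59 and 11.57 in WT. Both WT arrays lay between the Ncstn KO arrays. The change was -0.03 (SE 0.10, limma adjusted p = 0.9996), and the 95% interval of -0.26 to 0.21 includes moderate changes in either direction. Max served as an internal yardstick through the log2 difference between a member and Max on the same array. That measure does not depend on scaling by 1 factor per array, though quantile normalization can move it. By that measure Myc was higher by 0.21, with 1.30 and 1.29 in Ncstn KO against 0.98 and 1.202 in WT, and Mxd4 was higher by 0.35, with -0.04 and 0.21 against -0.24 and -0.30. Mxd3 was higher by 0.15, and for these 3 genes both Ncstn KO values lay above both WT values. The other 5 members overlapped by that measure. The same 3 genes had separate arrays before Max was subtracted, and Max varied little, so the measure repeats that result and adds no support to it. The share of all genes that separate by this measure was not taken. Such a ratio shows that a member and Max changed unequally, not which of them changed, and no test was run on it.

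Mxd4 is the Mxd family member known from differentiating and resting cells. Its brightest probe set read 11.56 and 11.71 in Ncstn KO and 11.34 and 11.27 in WT, a mean of 11.63 ± 0.11 against 11.31 ± 0.05 (SD, n = 2 each). Both Ncstn KO arrays were higher, by more than the step between the arrays of either group. The change was 0.32 (SE 0.11, 95% interval 0.07 to 0.58, unadjusted p = 0.0216, limma adjusted p = 0.615). It was 0.29 between the females and 0.36 between the males, between 0.25 and 0.40 when 1 array was left out, and 0.13 when scaled to the hybridization controls, where the arrays of the groups still separated. Of all genes, 17.5% had a larger absolute change. The second Mxd4 probe set read 9.90 and 10.02 in Ncstn KO and 9.66 and 9.39 in WT, a change of 0.43 (SE 0.18) with separate arrays and an unadjusted p of 0.0549 (probe set fit by limma, adjusted p = 0.964). A dimmer set at 6.88 to 7.03 had a change of 0.09, and the dimmest, at 4.22 to 4.55, overlapped between the groups with a change of 0.02.

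The 250 bases before the start of Mxd4 are shown because it had the largest change and because its promoter holds the E-box that this network binds. The sequence is from RefSeq (GRCm38.p6, chr5:34187711-34187960, minus strand, 5′ to 3′), with the E-box in capitals.
Mxd4: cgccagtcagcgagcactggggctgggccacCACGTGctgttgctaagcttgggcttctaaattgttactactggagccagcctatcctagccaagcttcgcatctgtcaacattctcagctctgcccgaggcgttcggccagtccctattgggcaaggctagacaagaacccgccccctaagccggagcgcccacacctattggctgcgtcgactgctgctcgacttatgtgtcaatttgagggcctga
The E-box CACGTG reads the same on both strands. It was searched in RefSeq windows of 250 bases before to 50 after a start. Of the 8 members with a window, 3 held it, Mxd4, Mnt and Max, against 8.09% of the 27025 genes with a window and 7.15% of the 32851 windows. A match describes the letters only, and binding was not measured.

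Mxd1, the founding Mxd antagonist and a gene known to be high in maturing neutrophils, read 10.44 and 10.43 in Ncstn KO and 10.66 and 10.03 in WT. The Ncstn KO arrays were nearly equal and lay between WT arrays that differed more than the replicates of any other member on its brightest probe set. The change was 0.09 (SE 0.22, 95% interval -0.45 to 0.63, limma adjusted p = 0.993), with 0.41 between the females and -0.22 between the males, and it was -0.22 without WT replicate 2 and 0.40 without WT replicate 1. Scaled to the hybridization controls it was -0.11. The second Mxd1 probe set read 9.78 and 10.47 in Ncstn KO and 9.64 and 9.76 in WT, so that the separation rested on the male Ncstn KO array (change 0.43, SE 0.26, probe set fit adjusted p = 0.979). The third set lay at 6.11 to 6.18 on all arrays. The bright Mxd1 probe sets therefore ordered the same 4 arrays differently.

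Markers of mature neutrophils and monocytes, cells that the lineage sort is meant to remove, stood above WT for 14 of 14 measured genes, where 55.8% of all genes did. Their median change was 0.75, with a range from 0.01 to 1.64 (F13a1). Both Ncstn KO arrays lay above both WT arrays for 8 of the 14, against 21.3% of all genes. Their summed intensity was 53900 and 69900 in Ncstn KO and 56800 and 45300 in WT, so that the sums overlapped. The brightest of them, S100a9, read 13.80 and 13.92 in Ncstn KO and 13.89 and 13.81 in WT, so that its signal was bright in both groups. It weighs most in the sum and changed by 0.01. Neither bright Mxd1 probe set ordered the 4 arrays as these sums did. Ncstn KO replicate 2, with the highest sum, was the highest on the second set, but WT replicate 1 was the lowest there. On the first set WT replicate 1 was the highest, and WT replicate 2, with the lowest sum, was the lowest. The part of these cells in the Mxd1 values was not tested. Basophil and mast cell markers summed to 4530 and 3890 in Ncstn KO and 1780 and 1870 in WT, with 4 of 4 genes above WT. T and NK cell markers summed to 7320 and 7200 in Ncstn KO and 7530 and 7480 in WT (2 of 6). Stromal and endothelial markers summed to 598 and 875 in Ncstn KO and 774 and 859 in WT (3 of 6). The basophil and mast cell sums separated the groups with Ncstn KO higher, and the T and NK and the erythroid sums with Ncstn KO lower. The part of any of these cells in the Mxd4 values was not tested. Summed erythroid markers were 1010 and 824 in Ncstn KO and 1530 and 1060 in WT (3 of 6 genes above WT). Their arrays separated higher for 0 and lower for 3, against 21.3% and 12.8% of all genes. Summed B cell markers were 2680 and 3390 in Ncstn KO and 3250 and 3600 in WT (3 of 6). Cd79b, the brightest of these, changed by 0.01 and weighs most in the sum. Changes of the B cell markers ran from -2.12 for Ms4a1 to 0.39 for Pax5, with arrays separate higher for 2 and lower for 1.

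Mxd3, a family member linked in mouse embryos to proliferating cells, read 9.51 and 9.44 in Ncstn KO and 9.35 and 9.34 in WT. The arrays separated, and the step between the groups was small. The change was 0.13 (SE 0.16, limma adjusted p = 0.975), and -0.07 when scaled to the hybridization controls. A second probe set gave 0.11 with overlapping arrays, and the dimmest, at 6.66 to 6.95, gave -0.17 with separate arrays, Ncstn KO being the lower.

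Mxi1, an antagonist closely related to Mxd1, read 11.38 and 11.57 in Ncstn KO and 11.65 and 11.42 in WT. In both groups the male array was the higher one, and the groups overlapped. The change was -0.06 (SE 0.13, limma adjusted p = 0.991) and -0.18 on the dimmer probe set.

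Mnt, the antagonist present in most cell types, read 11.08 and 11.28 in Ncstn KO and 11.16 and 11.19 in WT. The WT arrays were close together and lay between the Ncstn KO arrays. The change was 0.01 (SE 0.12, 95% interval -0.28 to 0.30, limma adjusted p = 1), with its sign turned by quantile normalization and by scaling to the hybridization controls. Mnt is also shown with its E-box, since both Mnt and Mxd4 encode antagonists and hold the motif, in 30 bases from RefSeq (GRCm38.p6, chr11:74830789-74830818, plus strand) with the motif in capitals.
Mnt: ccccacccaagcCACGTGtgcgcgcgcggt
The motif began 219 bases before the start of Mxd4 and 123 bases before that of Mnt. With the same motif in both windows, the change was 0.32 for Mxd4 and 0.01 for Mnt.

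Mga read 11.91 and 11.85 in Ncstn KO and 12.02 and 11.84 in WT, with both Ncstn KO arrays between the WT arrays. The change was -0.05 (SE 0.10, 95% interval -0.29 to 0.19, limma adjusted p = 0.990), and 0.04 as the mean of its 5 probe sets. The second set read 8.02 and 7.74 in Ncstn KO and 7.998 and 7.70 in WT, so that replicates of the same number, not of the same genotype, lay together. The third set read 6.33 and 7.19 in Ncstn KO and 6.51 and 6.62 in WT, with the male Ncstn KO array apart from the rest. The remaining sets changed by -0.10 and 0.10 at levels of 3.92 to 6.05.

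Over all 24 probe sets of the network, 16 lay above and 8 below WT by their means, where 55.8% of all genes lay above on their brightest sets. Both Ncstn KO arrays stood above both WT arrays for 9 of the 24, against a background of 18.5% over 45037 probe sets, and below them for 3, against 14%. Probe sets of 1 gene share their transcript and are not independent. Changes ran from -0.18 to 0.43, and 0 of 24 passed in the probe set fit (limma, lowest adjusted p = 0.935, with 1 set at an unadjusted p under 0.05). The female and male pairs had the same sign for 17 of the 24.

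**Figure D2:**
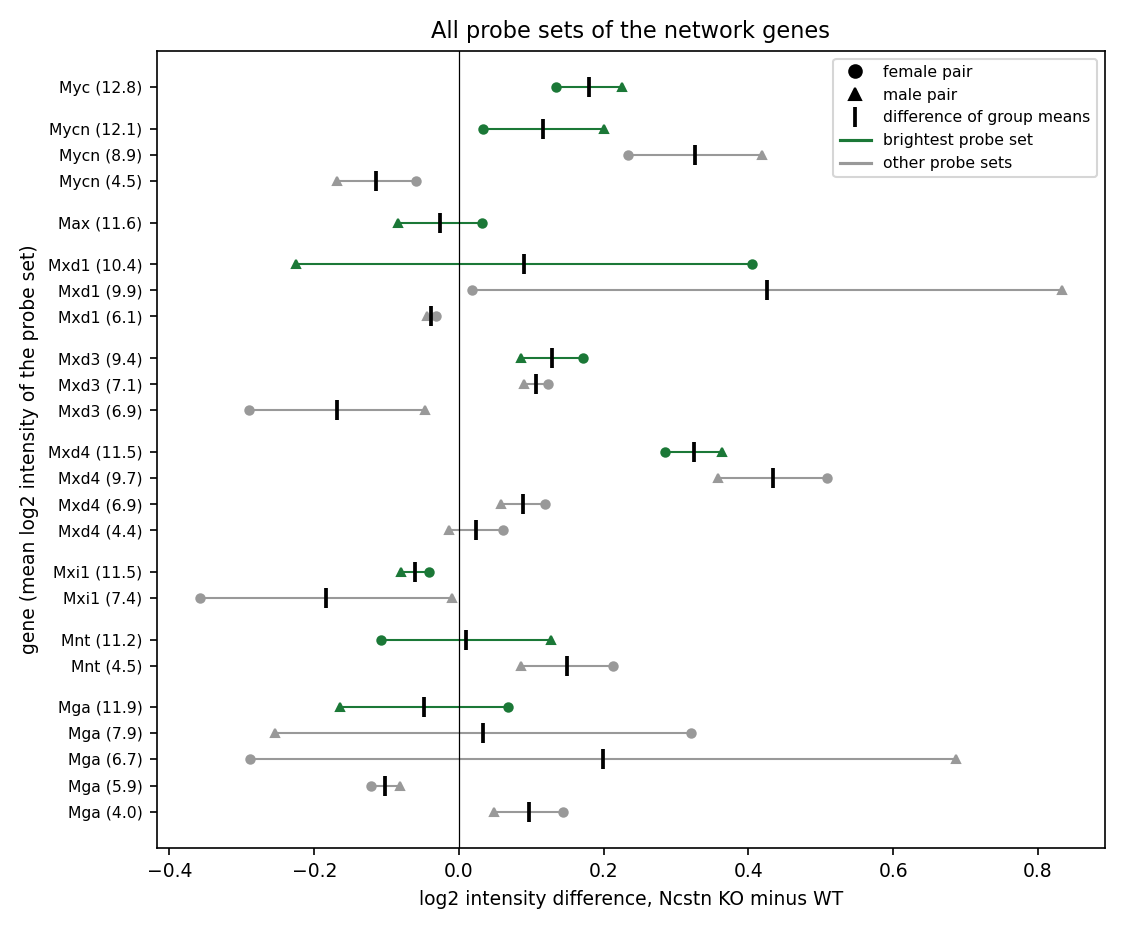
Log2 difference of Ncstn KO minus WT for the 24 probe sets of the network, from the brightest to the dimmest within each gene, with circles for the female pair, triangles for the male pair and a bar for the difference of group means. The 2 brightest Mxd4 sets lie at 0.32 and 0.43 with both pairs above 0.28, whereas the brightest Mxd1 set spans -0.22 to 0.41.

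By the centred profile over the 4 arrays, the genes nearest to Myc were Lipt1, Sorbs3 and Elmo1, at root mean square distances of 0.0023, 0.0040 and 0.0091 (log2). Those nearest to Mxd4 were Alox5ap, Gem and A630023P12Rik, at 0.0050, 0.0086 and 0.011. Over only 4 arrays many genes have such profiles: 339 genes lay within 0.05 of Myc and 99 within 0.05 of Mxd4. Alox5ap, which encodes the activating protein of leukotriene synthesis, had a change of 0.33 (SE 0.09, limma adjusted p = 0.479).

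The relatives of the network beyond the 9 members are further partners of Max and of its paralogue Mlx. Of 4 measured genes 0 passed, and all 4 lay above WT by their means. Over all genes 55.8% lay above WT, which is also the background for the lists that follow. The median change of the 4 was 0.26, or -0.05 without Ncstn KO replicate 1. Mycl, a further Myc paralogue, read 8.07 and 6.19 in Ncstn KO and 5.77 and 6.88 in WT. Its change of 0.81 (SE 0.67, adjusted p = 0.945) rested on the female Ncstn KO array, and it was -0.13 without that array and 0.20 with all Mycl probe sets averaged. Mlxipl, the carbohydrate-responsive partner of Mlx, was dim, at 3.70 and 2.76 in Ncstn KO and 2.79 and 2.86 in WT, and changed by 0.40 (SE 0.30). Mlxip, its close relative, changed by 0.12 (SE 0.14), or -0.08 when scaled to the hybridization controls.

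The cofactors that the network recruits showed small changes. Of 13 measured corepressors and coactivators 0 passed in either direction, 7 lay above and 6 below WT, and the median change was 0.02, or -0.07 without Ncstn KO replicate 1 and -0.18 when scaled to the hybridization controls. Sin3b, a scaffold of the complex that Mxd proteins recruit, read 12.67 and 12.68 in Ncstn KO and 12.36 and 12.56 in WT, with separate arrays and a change of 0.22 (SE 0.09, adjusted p = 0.734). The change of Sin3b was 0.12 without WT replicate 1. Kat5, a histone acetyltransferase that Myc recruits, changed by 0.34 (SE 0.16), and by 0.15 without Ncstn KO replicate 2. Hdac2, a deacetylase of the Sin3 complexes, changed by -0.12 (SE 0.08).

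Mga acts in a Polycomb complex, and of 8 measured genes of its other subunits 0 passed, 3 lay above and 5 below WT, and the median change was -0.03. The arrays separated with Ncstn KO lower for 3 of the 8, against 12.8% of all genes. These were Yaf2 (-0.21, SE 0.10), Pcgf6 (-0.21, SE 0.14), the subunit that defines the complex, and L3mbtl2 (-0.14, SE 0.11). L3mbtl2 changed by -0.0061 without Ncstn KO replicate 2, and averaging all probe sets gave -0.057 for Pcgf6 and -0.095 for Yaf2. The median was 0.03 when Ncstn KO replicate 2 was left out and -0.13 when Ncstn KO replicate 1 or WT replicate 1 was. Among 9 measured genes of Myc protein turnover 0 passed, with 4 above and 5 below WT and a median of -0.01, or 0.11 without Ncstn KO replicate 2 and -0.17 with all probe sets of a gene averaged. Fbxw7, the ubiquitin ligase subunit that marks Myc for destruction in stem cells, changed by 0.12 (SE 0.11), Stub1 by -0.10 (SE 0.11) and Huwe1 by 0.09 (SE 0.11). The signs of Fbxw7 and Huwe1 turned when all their probe sets were averaged and when arrays were scaled to the hybridization controls.

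Genes that Myc is known to induce lay mostly below WT by their means, and none passed. Of 20 measured ribosome biogenesis genes 6 lay above and 14 below WT, with 0 past the threshold and a median change of -0.06. Of 29 measured metabolism and growth genes 8 lay above and 21 below, with 0 past the threshold and a median of -0.12. The arrays separated with Ncstn KO lower for 7 of these 29 and higher for 1, against 12.8% and 21.3% of all genes. Over all genes, 55.8% lay above WT and the median was 0.02. These directions did not hold without some single arrays. Without Ncstn KO replicate 2 the medians were 0.06 for ribosome biogenesis and 0.04 for metabolism and growth, beside 0.07 for all genes. Without WT replicate 2 the ribosome biogenesis median was 0.01. Between the males 15 of 20 and 24 of 29 genes were lower in Ncstn KO, with medians of -0.12 and -0.13. Between the females 10 of 20 and 18 of 29 were lower, with medians of 0.0002 and -0.05. Over all 18193 genes, 9084 were lower between the males and 7274 between the females, with medians of 0 and 0.05.

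Odc1, the first enzyme of polyamine synthesis and a classical Myc target, read 12.06 and 11.85 in Ncstn KO and 12.21 and 12.28 in WT. Both Ncstn KO arrays were lower, with a change of -0.29 (SE 0.10, unadjusted p = 0.0276, limma adjusted p = 0.648), and -0.19 without Ncstn KO replicate 2. Eif4a1, a translation initiation helicase, read 13.30 and 13.28 in Ncstn KO and 13.37 and 13.46 in WT, a change of -0.13 (SE 0.06). Tfrc, the transferrin receptor gene, went the other way, with 12.55 and 12.24 in Ncstn KO and 12.21 and 12.09 in WT (0.25, SE 0.12, and 0.09 without Ncstn KO replicate 1). Among ribosome biogenesis genes Nolc1 had a change of -0.32 (SE 0.17), or -0.06 without Ncstn KO replicate 2, Pes1 of 0.20 (SE 0.11, with its sign turned when probe sets were averaged) and Dkc1 of -0.13 (SE 0.10).

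In 3 genes, chosen after their values were seen, Ncstn KO replicate 2 lay apart. Cad, the enzyme that starts pyrimidine synthesis, read 10.34 and 9.37 in Ncstn KO and 10.08 and 10.44 in WT. Mthfd2, a mitochondrial folate enzyme, read 10.91 and 10.07 in Ncstn KO and 10.70 and 11.03 in WT. Nop16, a nucleolar protein gene, read 10.39 and 9.49 in Ncstn KO and 10.31 and 10.29 in WT. In each, Ncstn KO replicate 1 lay among or above the WT arrays, and the changes were -0.41 (SE 0.33), -0.38 (SE 0.28) and -0.36 (SE 0.29).

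E-boxes stood in the promoters of 7 of 26 metabolism and growth genes with a window and in 4 of 16 ribosome biogenesis genes, against 8.09% of all genes. These lists were assembled from genes known as Myc targets, so an E-box there is no independent observation. Sites of 3 such genes are shown to give the sequence that Myc and the Mxd proteins share, each 30 bases from RefSeq (GRCm38.p6) with the motif in capitals, for Eif4a1 at chr11:69672595-69672624 (minus strand), Eif4e at chr3:138527192-138527221 (plus strand) and Ldha at chr7:46845744-46845773 (plus strand).
Eif4a1: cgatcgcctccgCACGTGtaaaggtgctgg
Eif4e: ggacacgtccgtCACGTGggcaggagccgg
Ldha: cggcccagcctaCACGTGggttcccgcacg
The changes of these genes were -0.13 for Eif4a1, -0.23 (SE 0.12) for Eif4e, with -0.08 between females and -0.38 between males, and 0.05 (SE 0.10) for Ldha, which the 0.20 of the hybridization controls would turn, and none passed. Eif4e encodes the cap-binding protein and Ldha a subunit of lactate dehydrogenase.

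Genes that Myc is known to repress included the largest changes among the lists of partners, cofactors and targets. Of 13 measured genes 0 passed, and 8 lay above and 5 below WT, where 55.8% of all genes lay above. The median was 0.09, or -0.04 without WT replicate 1, -0.02 without Ncstn KO replicate 2 and -0.10 when scaled to the hybridization controls. Ndrg2, a differentiation gene that Myc represses, read 8.18 and 8.68 in Ncstn KO and 7.36 and 7.34 in WT. Both Ncstn KO arrays were well above both WT arrays, a 2.11-fold difference (log2 1.08, SE 0.26, unadjusted p = 0.00537, limma adjusted p = 0.432), and the change was 0.88 when scaled to the hybridization controls. Gadd45a, a growth arrest gene, changed by 0.30 (SE 0.13) with separate arrays. Cdh2, which encodes N-cadherin, read 8.02 and 7.54 in Ncstn KO and 8.36 and 8.35 in WT, a change of -0.58 (SE 0.25), or -0.34 without Ncstn KO replicate 2. Members of the list thus lay on both sides of WT.

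Thbs1 and Cdkn1a, named after their values were seen, varied more between arrays of 1 group than between groups. Thbs1, a matrix protein gene, read 4.79 and 5.15 in Ncstn KO and 5.26 and 6.87 in WT, with a change of -1.09 (SE 0.53) that was -0.28 without WT replicate 2. Cdkn1a, the p21 inhibitor of cyclin-dependent kinases, read 10.55 and 11.06 in Ncstn KO and 10.05 and 11.12 in WT, so that the groups overlapped.

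**Figure D3:**
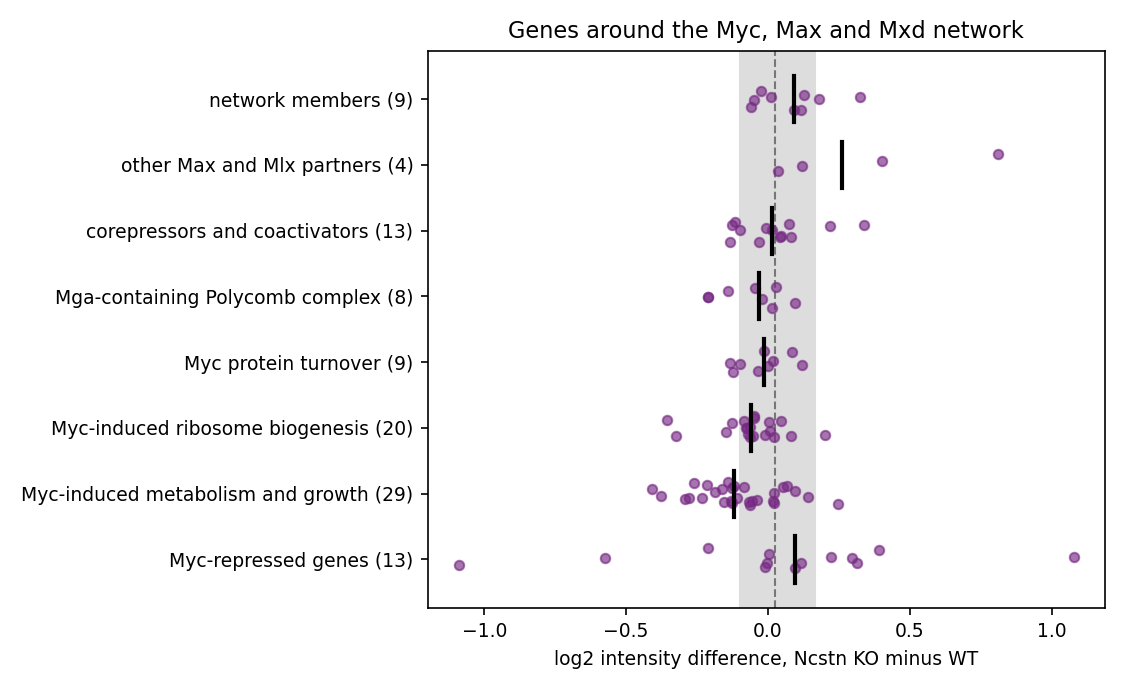
Log2 difference of Ncstn KO minus WT for each measured gene of the 8 lists, as points with the number of genes in brackets and a black bar at the median; the grey band holds the interquartile range of all genes and the dashed line is their median of 0.02. The metabolism and growth genes have their median at -0.12, and Ndrg2 at 1.08 and Thbs1 at -1.09 lie farthest from the rest.

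**Figure D4:**
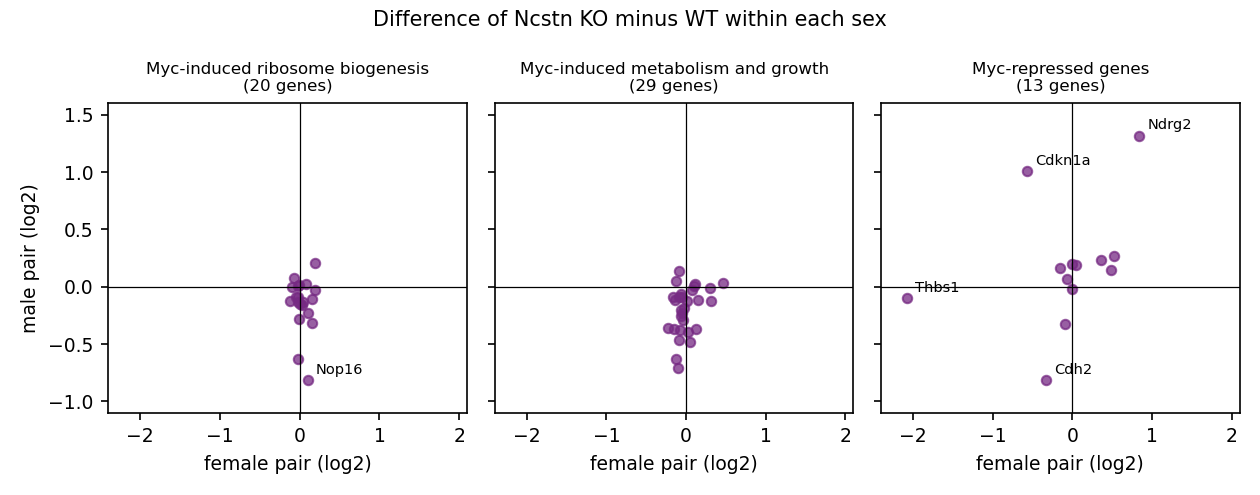
Log2 difference of Ncstn KO minus WT within the male pair (vertical) against the female pair (horizontal) for the 3 lists of Myc target genes, 1 point per gene. Most induced genes lie below 0 for males (15 of 20 and 24 of 29), against 9084 of 18193 over all genes. Cdkn1a lies at -0.57 for females and 1.01 for males.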

How the data were processed

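RNA from sorted LSK cells of 4 mice was amplified from 5 ng and hybridized to Affymetrix arrays, per the labels' protocols. The deposited values are intensities per probe set, and the submitters' processing notes name RMA. Its software and version: not given in the sources used here. Deposited values run from 3.32 to 23642.56, which is a linear scale, and log2 was taken with no further scaling. Signal over background was not assessed. Probe sets were named from the platform annotation; 34945 named 1 gene, 932 several and 9160 were unnamed here, and 64 control sets were left out. No build is given for the probe sets. The test of Ncstn KO against WT was limma's (version 3.58.1, run under R 4.3.3, with lmFit, eBayes with a trend, two-sided p-values, Benjamini-Hochberg over 18193 genes at 0.05), with a second fit over 45037 probe sets for the dimmer sets. The prior added 4.11 degrees of freedom to the residual ones. Replicates are separate mice, and their number limits the precision. No values of other samples were in the table (0 columns).

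The members, the gene lists and the alternatives were chosen with earlier results of these data known. Named genes were the members, Ncstn and up to 3 genes per list with the smallest unadjusted p. Also named were the 3 genes nearest in profile to Myc and to the member of largest change. The rest were named as chosen later, shown for their E-box or given as cell type markers. Same-numbered replicates deviated from their group means with a correlation of -0.24 over genes, so the numbers were not taken as pairs. The same-sex value of 0.24 is not a separate observation, since with 2 arrays per group it must be the opposite. Figures used matplotlib 3.10.9.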

Additional observations from a re-analysis of the deposited data

Results flagged for a closer look

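Among the probe sets of the members and of Ncstn and the brightest sets of the other genes chosen for naming, the female and male pairs moved in opposite directions by at least 0.25 on the log2 scale in 4 sets. With 1 array per sex and genotype the difference between the sexes was not tested, and it cannot be told apart from variation between single mice. The second Mga probe set differed by 0.32 in females and -0.25 in males (Ncstn KO minus WT). The third Mga probe set differed by -0.29 in females and 0.69 in males, opposite to the second, while the brightest set gave 0.07 and -0.16. The dimmer Ncstn probe set differed by -0.92 in females and 0.27 in males, while the brighter set gave -1.40 and -1.14. Cdkn1a differed by -0.57 in females and 1.01 in males, with WT arrays at 11.12 (female) and 10.05 (male).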

How the results depend on the processing

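The fit called 0 of 18193 genes (1237 at an unadjusted p under 0.05), 62 after centring each array on its median, 3 after quantile normalization, and 0 to 27 when 1 array was left out (23 without Ncstn KO replicate 1 and 27 without Ncstn KO replicate 2). Members past the threshold numbered 0 in all of these and in the other settings run. The members' median change of 0.09 became -0.11 when scaled to the hybridization controls and 0.024 to 0.090 when 1 array was left out. That scaling reversed Myc (-0.016), Mycn (-0.079), Mxd1 (-0.11), Mxd3 (-0.067), Mnt (-0.19), Mlxip (-0.077), Fbxw7 (-0.077), Huwe1 (-0.11), Lipt1 (-0.019), Sorbs3 (-0.013) and Elmo1 (-0.025), since it lowered every change by 0.20. Quantile normalization reversed Mnt (-0.00025), and averaging all probe sets of a gene reversed Mga (0.036), Fbxw7 (-0.089), Huwe1 (-0.34) and Pes1 (-0.20).

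Leaving out 1 array gave ranges that crossed 0 for Mycn (-0.021 to 0.25), Max (-0.077 to 0.024), Mxd1 (-0.22 to 0.40), Mxi1 (-0.17 to 0.052), Mnt (-0.091 to 0.11), Mga (-0.14 to 0.039), Mlxipl (-0.066 to 0.87), Mycl (-0.13 to 1.75), Cdkn1a (-0.31 to 0.76), Nop16 (-0.81 to 0.090), Cad (-0.89 to 0.077) and Mthfd2 (-0.79 to 0.042), but not for Myc (0.08 to 0.28), Mxd3 (0.09 to 0.17) or Mxd4 (0.25 to 0.40). The cause was not tested. With a replicate block the fit called 0 genes (920 at an unadjusted p under 0.05), and the adjusted p of Mxd4 was 0.997; with sex as a term it called 0 (1591) and the adjusted p of Mxd4 was 0.46. Neither changed a call. Members at an unadjusted limma p under 0.05 numbered 0 with a replicate block and 2 with sex as a term, beside 1 in the main fit. They numbered 0 with eBayes without a trend (1243 of all genes) and 0 with all probe sets averaged (1157). Averaging made the members with separate arrays 5 higher and 1 lower, beside 3 and 0 on the brightest sets. The share of all genes with separate arrays was not taken after averaging, so these counts have no background to be read against. Over the settings that kept all arrays, the adjusted p of Mxd4 ran from 0.46 to 0.997 and that of Myc from 0.513 to 1. Mlxipl and A630023P12Rik gave no value when the dimmest 25% of genes were left out.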
